A study of Mus musculus with 24 samples.

Results

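Prodh, Aldh4a1, Aldh18a1 and Oat encode the mitochondrial enzymes that join proline and ornithine to glutamate, and their transcript levels were followed across 24 microarrays of mouse brain. They are 4 of the 19505 gene symbols on the array that could be tested. Each of the 4 symbols had 1 row among the deposited rows that name 1 gene, so no choice between rows was needed. Prodh was chosen by its difference between genotypes in the hippocampus of these same arrays, and its enzyme partners were added by function. The choice also looked at the genotype effect per region and how it differed between regions, so all KO against WT values of Prodh are given as a description without a test.

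The arrays compare mice with a liver-specific knockout of glutamine synthetase (KO) with wild-type mice (WT), in a study of raised blood ammonia and the brain. Total RNA came from cerebral cortex, hippocampus and cerebellum of 4 KO and 4 WT animals, which gives 6 groups of 4 arrays. Animals are numbered from 1 to 4 within each genotype, and a number was taken as the same animal in all 3 regions. The deletion is specific to liver, and the sources used here give neither the Cre driver nor the strain, age and sex of the animals. Brain arrays cannot check a deletion in liver, and the row of the deleted gene was not analysed here.

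Proline is degraded in mitochondria in 2 steps. Proline dehydrogenase, the product of Prodh, oxidises proline to pyrroline carboxylate and passes the electrons to the respiratory chain, and the dehydrogenase encoded by Aldh4a1 turns this intermediate into glutamate. In the other direction the synthase encoded by Aldh18a1 makes pyrroline carboxylate from glutamate, and ornithine aminotransferase, encoded by Oat, exchanges it with ornithine. The 4 enzymes thus share 1 intermediate that links a transmitter amino acid to proline, to ornithine and, through ornithine, to arginine and the polyamines. Loss of PRODH function raises proline in people and in mice.

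Values are deposited log2 intensities from RMA, which subtracts background, puts the arrays on a common scale and combines a gene's probes into a single value. A difference of 1 on this scale corresponds to a factor of 2 in the deposited values, and differences below are KO minus WT or first-named minus second-named region. A gene was called changed where limma gave a Benjamini-Hochberg adjusted p under 0.05 over all 19572 rows tested. Levels of different genes come from different probes and are not set against each other. In tissue samples such as these, fewer cells of a type and less RNA per cell cannot be told apart.

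The promoter windows of Prodh and Oat are shown because these genes carried the genotype pattern and the regional pattern described below. They run from 250 bases before to 50 bases after the annotated start and come from RefSeq (mouse build GRCm38.p6), whose table held all 4 genes. The Prodh window lies at chr16:18089141-18089440 on the minus strand and the Oat window at chr7:132576349-132576648 on the minus strand. Both are written 5′ to 3′ in lower case, with matches to any of the motifs named in the next paragraph in capitals.
Prodh: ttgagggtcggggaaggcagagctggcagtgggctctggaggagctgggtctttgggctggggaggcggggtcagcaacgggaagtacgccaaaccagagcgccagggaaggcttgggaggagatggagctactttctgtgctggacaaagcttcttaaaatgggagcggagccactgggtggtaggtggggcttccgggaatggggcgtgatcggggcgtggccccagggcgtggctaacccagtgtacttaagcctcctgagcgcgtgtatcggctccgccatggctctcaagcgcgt
Oat: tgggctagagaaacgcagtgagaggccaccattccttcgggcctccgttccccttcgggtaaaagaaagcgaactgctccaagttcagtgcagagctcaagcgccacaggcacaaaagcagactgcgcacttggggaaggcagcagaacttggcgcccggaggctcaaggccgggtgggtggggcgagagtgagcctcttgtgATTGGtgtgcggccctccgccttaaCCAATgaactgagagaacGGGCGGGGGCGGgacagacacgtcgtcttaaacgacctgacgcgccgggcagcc

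The motifs searched on both strands were CCAAT, the GC box GGGCGG, the E-box CACGTG, the cAMP response element TGACGTCA and the amino acid response core TGATGNAA. The Prodh window, with a GC content of 63%, held none of them in these letters. The Oat window, with a GC content of 61.7%, held 2 CCAAT matches, at -47 on the reverse strand and at -22, and 2 adjoining GC boxes at -4 and 2 relative to the start. Of the other windows, that of Aldh4a1 held 3 CCAAT matches and that of Aldh18a1 held 1 GC box and 1 E-box. Among 32851 RefSeq windows of this length, 37.4% held CCAAT, 35.7% the GC box, 7.15% the E-box, 1.79% the cAMP element and 3.97% the amino acid response core, so matches to the first 2 motifs are common.

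In the hippocampus, Prodh was higher in KO than in WT animals, while in cortex and cerebellum its KO mean was the lower one. Hippocampal Prodh measured 10.38, 10.08, 10.20 and 10.24 in KO animals 1 to 4, against 9.74, 9.95, 9.98 and 9.81 in WT animals 1 to 4. Every KO value lay above every WT value. KO hippocampus averaged 10.22 ± 0.12 and WT hippocampus 9.87 ± 0.12 (SD, n = 4 each), a difference of 0.35 (SE 0.09) or 1.28-fold. Groups separated in this direction in 1.19% of all rows and in the opposite direction in 0.981%.

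Cortical Prodh went the other way in these animals. It measured 10.00, 9.89, 9.95 and 10.01 in KO cortex, against 10.21, 10.20, 10.08 and 10.08 in WT cortex. All 4 KO values lay below all 4 WT values, which was so for 1.97% of all rows, with 1.71% separated upward. The means were 9.96 ± 0.06 in KO and 10.14 ± 0.07 in WT cortex (SD, n = 4 each). The difference was -0.18 (SE 0.09). No row on the array passed the test in cortex (0%), and 1459 rows had an unadjusted p under 0.05.

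Cerebellar Prodh measured 9.78, 9.82, 9.72 and 9.77 in KO animals, against 9.96, 10.11, 9.82 and 9.93 in WT animals. The groups met at 1 point, where KO animal 2 was level with WT animal 3. Their means were 9.77 ± 0.04 in KO and 9.96 ± 0.12 in WT cerebellum (SD, n = 4 each). The difference was -0.18 (SE 0.09). Again no row was called (0%), with 1860 at an unadjusted p under 0.05. All KO values lay above all WT values in 1.93% of rows in this region and below them in 1.57%.

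**Figure D1:**
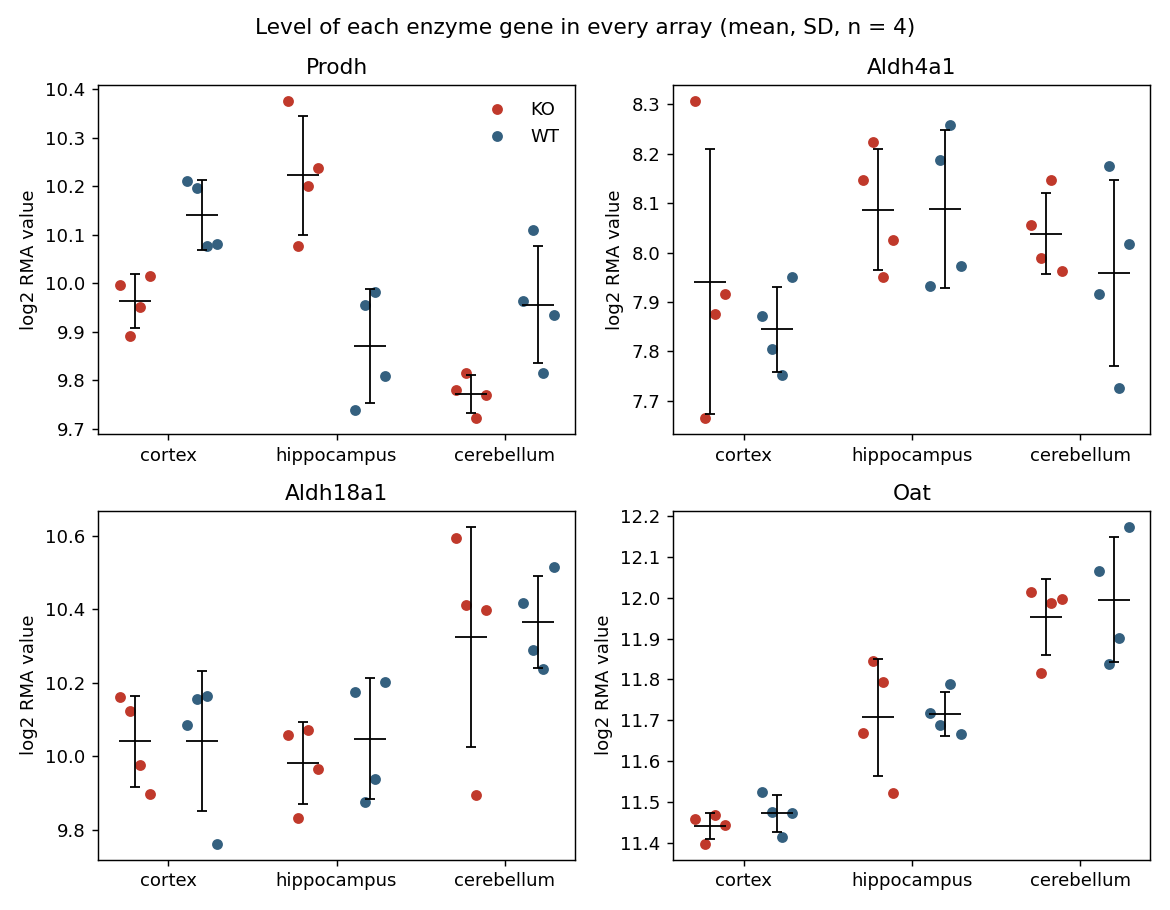
Level of Prodh, Aldh4a1, Aldh18a1 and Oat in every array as deposited log2 RMA values (vertical axes, each with its own range that does not start at 0), by region, with KO left of WT; horizontal lines are means and bars SD of 4 arrays. Hippocampal Prodh reads 10.08 to 10.38 in KO and 9.74 to 9.98 in WT, whereas Oat steps up between regions in both genotypes.

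Averaged over cortex and cerebellum, the Prodh difference was -0.18 (SE 0.06), beside 0% of rows called and 2049 at an unadjusted p under 0.05. The effect in cerebellum minus the effect in cortex was -0.01 (SE 0.13), beside 0% of rows called and 1229 at an unadjusted p under 0.05. The effect in hippocampus stood 0.53 (SE 0.13) above that in cortex, and the effect in cerebellum stood at -0.53 (SE 0.13) relative to hippocampus. With the 3 regions averaged, the opposite directions left a Prodh difference of 0.00 (SE 0.05).

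Hippocampus and cortex stood in opposite order in KO and WT animals. Hippocampus minus cortex for Prodh was above 0 in 4 of 4 KO animals (0.19 to 0.38) and below 0 in 4 of 4 WT animals (-0.47 to -0.09). Within each genotype the hippocampal and cortical values did not overlap, so any pairing of arrays gives these counts. This pattern occurred in 45 of 19572 rows (0.23%), given as a description because the genotype effects per region entered the choice of Prodh. Cerebellum minus hippocampus was negative in all 4 KO animals (-0.60 to -0.26), whereas in WT animals it ran from -0.17 to 0.23 and was positive in 3 of 4. Cerebellum minus cortex was negative in all 8 animals, from -0.24 to -0.07 in KO and from -0.26 to -0.09 in WT. In KO brains the hippocampus was thus the region with the highest Prodh value in every animal, and in WT brains the cortex was.

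**Figure D2:**
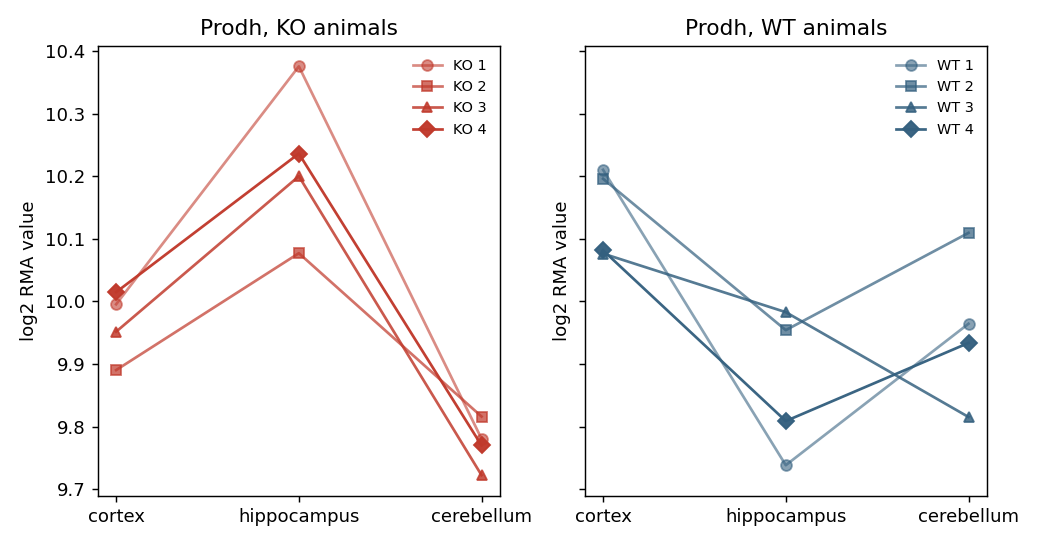
Prodh in the 3 regions of each animal (horizontal axis) as deposited log2 RMA values (vertical axis, not starting at 0), KO animals in the left panel and WT animals in the right, 1 line per animal. Every KO line peaks in the hippocampus, and every WT line is highest in the cortex.

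Full separation downward in cortex together with full separation upward in hippocampus was met by 4 of 19572 rows (0.0204%). Beside Prodh these were Ntpcr, Olfr250 and S100a4, named here after their values were seen. Taken alone, the cortical condition was met by 1.97% of rows and the hippocampal condition by 1.19%. The genotype effects per region entered the choice of Prodh, so its place among these rows is not a test. Ntpcr, a nucleoside triphosphatase, differed by -0.30 in cortex and 0.24 in hippocampus, Olfr250, an odorant receptor gene, by -0.44 and 0.29, and S100a4, a calcium-binding protein gene, by -0.23 and 0.24. Their cerebellar differences were -0.20 for Ntpcr, -0.05 for Olfr250 and -0.11 for S100a4. The spread of Prodh within groups was small for this array set, with a residual SD of 0.09 that lay at the 0.49 percentile of all rows.

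In 3 KO libraries, markers of neighbouring tissue stood apart from the rest. Across 9 measured olfactory bulb markers, the mean log2 level was 12.29 in KO cortex 1 and 11.64 in KO cortex 4, against 8.37 and 8.48 in the other KO cortex arrays and 8.17 to 8.71 in WT cortex. Across 8 brainstem markers, KO cerebellum 3 reached 10.34, against 8.32 to 8.61 in the other KO and 8.07 to 8.54 in WT cerebellum arrays. Without KO cortex 1 and 4 the cortical Prodh difference was -0.22, and also without KO cerebellum 3 the mean over cortex and cerebellum was -0.19. Both differences were at least as large in the remaining arrays, but the mean over cortex and cerebellum also lacked KO cortex 1 and 4. KO cerebellum 3 had the lowest Prodh value of the KO cerebellum arrays (9.72, the others 9.77 to 9.82). Without it the cerebellar difference alone was therefore smaller in size. Markers of the named regions were high where the labels place them: 7 cerebellar markers averaged 14.50 to 16.13 in KO and 15.65 to 16.29 in WT cerebellum, and at most 8.67 elsewhere.

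Astrocyte markers, a list of 8 genes, were not higher in KO hippocampus. Their mean level there was 13.40 to 13.50 in KO and 13.47 to 13.60 in WT arrays. In cortex they spanned 13.07 to 13.32 in KO and 13.08 to 13.47 in WT arrays, and in cerebellum 13.81 to 14.09 in KO and 13.50 to 13.82 in WT arrays. Choroid plexus markers varied widely between hippocampal arrays, from 8.88 to 12.92 in KO and from 9.47 to 11.65 in WT, which are overlapping ranges. All 6 neuron markers had a lower KO mean in hippocampus (median difference -0.12; 15.07 to 15.16 in KO and 15.15 to 15.31 in WT arrays), and 5 of 6 hippocampal markers a higher one (median 0.25; 10.32 to 11.01 in KO and 10.12 to 10.69 in WT arrays). In cerebellum all 7 oligodendrocyte, 6 microglia and 4 endothelial markers had higher KO means (medians 0.54, 0.30 and 0.26), and all 7 cerebellar and 7 choroid plexus markers lower ones (medians -0.41 and -0.49). KO cerebellum 3 stood apart in several of these lists. It read 14.46 for oligodendrocyte markers (other KO 12.74 to 12.78, WT 12.27 to 12.90). For microglia it read 9.33 (other KO 8.56 to 8.68, WT 8.37 to 8.55). Its cerebellar markers read 14.50 (other KO 16.01 to 16.13, WT 15.65 to 16.29). Its choroid plexus markers read 11.79 (other KO 8.76 to 8.94, WT 8.73 to 12.26). Endothelial markers read 10.90 there (other KO 10.55 to 10.87, WT 10.36 to 10.62). No gene of these lists was called, and their part in the values of the enzymes was not tested.

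The 3 partner enzymes showed no called genotype difference in any region, beside a background of 0% of rows called in each. For Aldh4a1, which completes proline breakdown to glutamate, KO hippocampus averaged 8.09 ± 0.12 and WT hippocampus 8.09 ± 0.16 (SD, n = 4 each), with a difference of 0.00 (SE 0.12; limma adjusted p = 1.00; 412 rows had an unadjusted p under 0.05 in this region). In cortex Aldh4a1 measured 8.31, 7.67, 7.88 and 7.92 in KO animals, against 7.87, 7.80, 7.75 and 7.95 in WT animals. KO animal 1, an array high in olfactory bulb markers, stood above all others, and KO animal 2 was the lowest of the 8. The cortical difference was 0.10 (SE 0.12; limma adjusted p = 0.900), and it turned to -0.07 without KO cortex 1 and 4. In cerebellum the Aldh4a1 difference was 0.08 (SE 0.12, limma adjusted p = 0.853). KO values there, from 7.96 to 8.15, lay inside the WT range from 7.73 to 8.18. The 95% intervals ran from -0.15 to 0.35 in cortex, from -0.25 to 0.25 in hippocampus and from -0.17 to 0.33 in cerebellum. Differences up to these bounds remain possible. All Aldh4a1 values (7.67 to 8.31) lay below the array medians (8.72 to 8.82), and their signal over background is unknown.

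Aldh18a1, which starts proline and ornithine synthesis from glutamate, differed by 0.00 in cortex, -0.07 in hippocampus and -0.04 in cerebellum, each with SE 0.13 and limma adjusted p values of 0.999, 1.00 and 0.937. Its cerebellar values were 10.60, 10.41, 9.89 and 10.40 in KO animals, against 10.42, 10.29, 10.24 and 10.51 in WT animals. The low value belongs to KO animal 3, the array with the brainstem markers. Cortical arrays spread as well, with Aldh18a1 from 9.90 to 10.16 in KO and from 9.76 to 10.16 in WT animals.

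Oat differed between genotypes by -0.03 in cortex, -0.01 in hippocampus and -0.04 in cerebellum, each with SE 0.09 and limma adjusted p values of 0.968, 1.00 and 0.908. The 95% intervals, from -0.22 to 0.16 in cortex, from -0.20 to 0.18 in hippocampus and from -0.23 to 0.15 in cerebellum, leave differences up to these bounds possible. Averaged over the 3 regions, Aldh4a1 differed by 0.06, Aldh18a1 by -0.04 and Oat by -0.03 (limma adjusted p = 0.853, 0.925 and 0.920; 0% of rows called, 1450 at an unadjusted p under 0.05). An exact 2-sided permutation of the animal means gave p = 0.486 for Aldh4a1, 0.6 for Aldh18a1 and 0.4 for Oat, where the smallest p possible is 0.0286. The F statistic for a genotype effect that differs between regions called none of the 3 (limma adjusted p = 0.983, 0.991 and 0.996) and no row at all (0%, with 996 at an unadjusted p under 0.05).

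**Figure D3:**
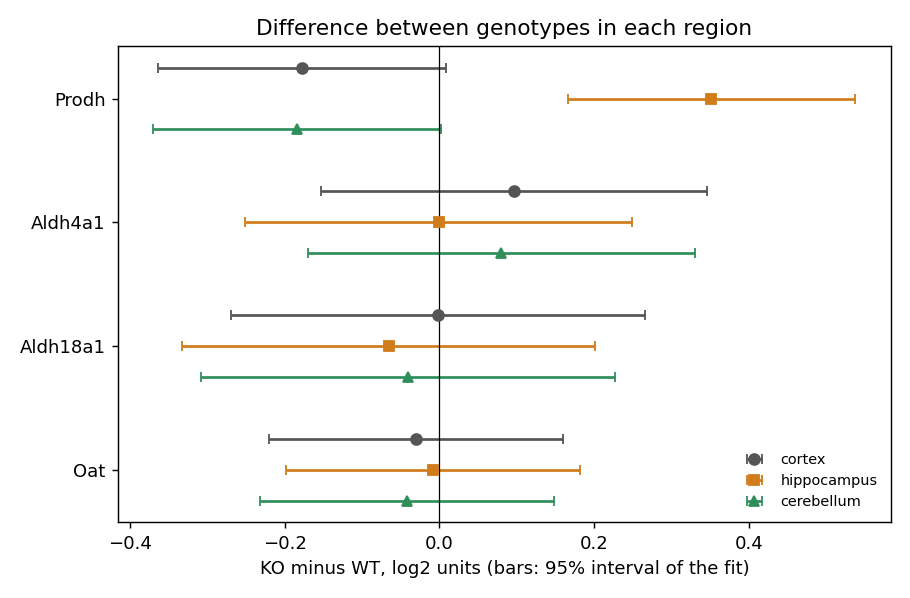
KO minus WT difference in log2 units (horizontal axis) for each gene and region, with 95% intervals of the limma fit as bars and a line at 0. The Prodh points stand at -0.18, 0.35 and -0.18 in cortex, hippocampus and cerebellum, values that led to its choice, and all 9 intervals of the partner enzymes include 0.

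Oat, in contrast, had a regional gradient in both genotypes. Its cortical values were 11.46, 11.40, 11.47 and 11.44 in KO animals and 11.52, 11.47, 11.41 and 11.47 in WT animals. In hippocampus it measured 11.67, 11.84, 11.79 and 11.52 in KO animals and 11.72, 11.69, 11.79 and 11.67 in WT animals. In cerebellum the values were 12.01, 11.81, 11.99 and 11.998 in KO animals and 12.07, 11.84, 11.90 and 12.17 in WT animals. Every cerebellar value exceeded every cortical value of its genotype, and every hippocampal value did as well.

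Oat was higher in cerebellum than in cortex by 0.51 in KO animals (SE 0.09, 1.43-fold; limma adjusted p = 8.1e-05) and by 0.52 in WT animals (SE 0.09, 1.44-fold; limma adjusted p = 4.81e-05). Calls between these regions were common, at 32.1% of rows in KO and 35.8% in WT. The step was positive in all 8 animals, from 0.42 to 0.56 in KO and from 0.36 to 0.70 in WT. Cerebellum also exceeded hippocampus, by 0.25 in KO (limma adjusted p = 0.0418; 31.3% of rows called) and by 0.28 in WT animals (limma adjusted p = 0.0184; 34.9% of rows called). This step was positive in all 4 WT animals but in 3 of 4 KO animals, with -0.03 in KO animal 2. The KO values of these regions overlapped. The KO call was lost without any of 7 single arrays (lowest difference 0.19, adjusted p = 0.165, without KO hippocampus 4), and the WT call was lost without WT cerebellum 1 (adjusted p = 0.0575) or WT cerebellum 4 (adjusted p = 0.0841). Hippocampus minus cortex was 0.27 in KO and 0.24 in WT animals and did not pass the test (limma adjusted p = 0.0872 with 6.86% of rows called in KO, and 0.116 with 7.09% in WT), though all 8 animals had a positive step. Without KO hippocampus 4 the KO difference was 0.33 and was called (limma adjusted p = 0.04). Astrocyte markers were also higher in cerebellum (13.50 to 14.09 over all 8 arrays) than in cortex (13.07 to 13.47), and their part in the gradient was not tested.

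Aldh18a1 was also highest on average in cerebellum. Cerebellum minus hippocampus was 0.34 in KO animals (SE 0.13; limma adjusted p = 0.0451), a call that was lost without any of 10 single arrays, at the lowest 0.25 without KO cerebellum 1 (adjusted p = 0.183). In WT animals it was 0.32 (SE 0.13; limma adjusted p = 0.0596), and the WT groups did not overlap. Cerebellum minus cortex was 0.28 in KO (limma adjusted p = 0.0992) and 0.32 in WT animals (limma adjusted p = 0.0538), positive in 3 of 4 KO and 4 of 4 WT animals. Without KO cerebellum 3, the array with the brainstem markers, the KO difference was 0.43 and was called (adjusted p = 0.00613). The WT differences were called without any of 5 single arrays against cortex (lowest adjusted p = 0.0218) and without any of 3 against hippocampus (lowest adjusted p = 0.0252), in both cases lowest without KO cerebellum 3. No region pair passed the test for Aldh4a1, whose largest difference was 0.15 in KO (hippocampus minus cortex, limma adjusted p = 0.582) and 0.24 in WT animals (hippocampus minus cortex, limma adjusted p = 0.252). For Prodh, cerebellum minus cortex was -0.19 in KO and -0.19 in WT animals (limma adjusted p = 0.112 and 0.117). Its cerebellum minus hippocampus was -0.45 in KO and 0.08 in WT animals, and its hippocampus minus cortex 0.26 in KO and -0.27 in WT animals. These Prodh pairs with hippocampus are given without a test, because the hippocampal values led to its choice.

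A list of 27 further genes of proline, ornithine, polyamine and glutamate metabolism was read from the same fit, of which 20 were measured. The other 7 were not analysed here. None of the 20 was called between genotypes in any region. In cortex 9 were higher and 11 lower in KO with a median of -0.02 (all rows: 47.1% higher, median -0.01), in hippocampus 13 were higher and 7 lower with a median of 0.02 (52.5%, median 0.01), and in cerebellum 13 were higher and 7 lower with a median of 0.11 (49.2%, median 0.00). At an unadjusted p under 0.05 stood 3 of the 20 in cortex (15%, beside 7.45% of all rows), 1 in hippocampus (5%, beside 2.11%) and 6 in cerebellum (30%, beside 9.5%).

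Around proline itself, Pycr3, which makes proline from pyrroline carboxylate and is listed in the files under its older symbol Pycrl, differed by -0.14 in cortex, 0.19 in hippocampus and -0.16 in cerebellum (SE 0.13 each). No difference passed the test (limma adjusted p = 0.859, 1.00 and 0.714) and the hippocampal groups overlapped, at 10.29 to 10.72 in KO and 10.09 to 10.47 in WT. The cortical difference was -0.02 without WT cortex 3, and also without KO cortex 1 and 4. Prodh2, which oxidises hydroxyproline, differed by at most 0.11 in size (-0.11 in cerebellum, limma adjusted p = 0.806). Slc36a2, a proton-coupled transporter of proline and glycine, had hippocampal values of 7.17, 7.15, 7.24 and 7.15 in KO animals, against 7.54, 7.62, 7.38 and 7.51 in WT animals. All KO values were below all WT values (0.981% of all rows), a difference of -0.33 (SE 0.10) that was not called (limma adjusted p = 1.00). These values lay below the array medians (8.72 to 8.82), and their signal over background is unknown.

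Slc6a7, the proline transporter of glutamatergic nerve endings, was the list's clearest regional gene. It averaged 9.57 ± 0.49 in KO and 9.25 ± 0.12 in WT cerebellum, against 11.13 ± 0.05 in KO and 11.17 ± 0.22 in WT cortex (SD, n = 4 each). Its cerebellar difference between genotypes was 0.31 (SE 0.17; limma adjusted p = 0.555). KO cerebellum 3, the array with brainstem markers, read 10.26 where the other KO cerebella read 9.12 to 9.45, and without it the difference was 0.08. Pepd, which splits dipeptides that end in proline, was higher in cerebellum than in cortex by 0.71 in KO and 0.66 in WT animals. It was called in both, beside 32.1% of all rows called in KO and 35.8% in WT.

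On the ornithine and polyamine side, Arg2, the mitochondrial arginase that yields ornithine, differed by 0.45 in cortex (SE 0.18; limma adjusted p = 0.589), with KO values from 6.81 to 7.24 and WT values from 6.25 to 6.68. Azin1, an inhibitor of antizyme, differed by 0.33 (SE 0.11; limma adjusted p = 0.512), and Arg1, the cytosolic arginase, by -0.34 (SE 0.13; limma adjusted p = 0.580). In each of these 3 genes the cortical groups did not overlap (background 1.71% of rows upward and 1.97% downward), and without KO cortex 1 and 4 the differences were 0.34, 0.26 and -0.25. Arg1 read 5.88 to 6.25 in KO and 6.41 to 6.56 in WT cortex. The Arg1 and Arg2 values lay below the array medians (8.72 to 8.82), and their signal over background is unknown. Slc25a15, the mitochondrial ornithine carrier, was the 1 list gene with all KO values above all WT values in cerebellum, from 8.82 to 9.04 in KO and from 8.61 to 8.80 in WT animals (1.93% of all rows), a difference of 0.17 (SE 0.10; limma adjusted p = 0.581).

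The list genes of smallest p in cerebellum moved with 1 array. Got1, the cytosolic aspartate aminotransferase, differed by 0.31 (SE 0.13; limma adjusted p = 0.488), Odc1, the first enzyme of polyamine synthesis, by 0.36 (SE 0.16; limma adjusted p = 0.501) and Oaz2, an antizyme, by 0.23 (SE 0.10; limma adjusted p = 0.501). KO cerebellum 3 was the highest of the 8 arrays for all 3 genes. Without it the differences were 0.16 for Got1, 0.17 for Odc1 and 0.14 for Oaz2. Oaz2 in hippocampus differed by 0.15, also without a call (limma adjusted p = 1.00).

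**Figure D4:**
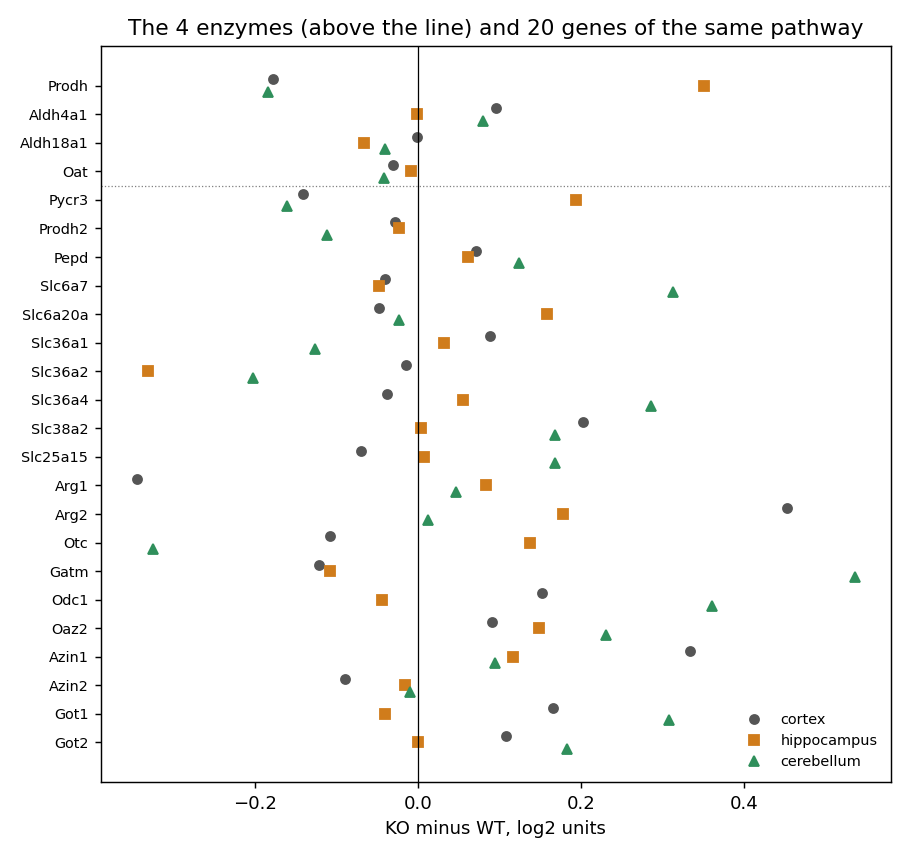
KO minus WT difference in log2 units (horizontal axis) for the 4 enzymes, above the dotted line, and the 20 measured list genes below it, with 1 symbol per region and a line at 0. Prodh combines a hippocampal value of 0.35 with -0.18 in both other regions.

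After group means were subtracted, the genes most like Prodh over the 24 arrays were Cyp2t4 (Pearson r = 0.78), Adam5 (0.75) and Vmn2r5 (0.75). Those most like Aldh4a1 were Itgav (0.84), Tax1bp3 (0.82) and Gpr174 (0.79), those most like Aldh18a1 were Sla (0.85), Ppwd1 (0.83) and Npff (0.82), and those most like Oat were Dcun1d1 (0.79), Smu1 (0.78) and Coq10b (0.77). Values of 1 array share its RNA and its normalization, and these are the highest of 19572 rows, so they are given as a description. Among the members, Prodh and Aldh4a1, which act in sequence, had r = 0.48 and Spearman rho = 0.52. The other 5 pairs lay between -0.28 and 0.20 in r and between -0.38 and 0.27 in rho.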

How the data were processed

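Total RNA of 24 brain samples was measured on single arrays. The labels name biotin and also describe Cy3, so the labelling chemistry is not settled. The deposited log2 values were made by the authors with RMA, per the submitters' processing notes; the sources used here do not give its version, settings, log base or genome build. A log2 scale was inferred from the range of values (3.89 to 19.14, array medians 8.72 to 8.82). They were used as deposited. Of 22206 rows, 2634 without a gene were left out. No row was removed for dim signal, and without scanner files signal over background is unknown, so the number of arrays limits the precision.

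The model was limma 3.58.1 under R 4.3.3 (lmFit, eBayes, 2-sided) on all 24 arrays with 1 mean per group, with 18 residual and 6.9 prior degrees of freedom. For contrasts across regions, animal was a random block (duplicateCorrelation, statmod 1.5.0; correlation 0.0065). P-values were adjusted over all 19572 rows. The fit was tested on simulated data.

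KO and WT animals of 1 number are different animals because their genotypes differ. Same-numbered KO and WT arrays of a region had correlations of residuals from -0.24 to 0.30 (2 of 12 over 0.1). Arrays taken as the same animal in different regions had correlations from -0.19 to 0.30 (6 of 24 over 0.1). These ranges are alike, so they cannot show whether a number is the same animal in all regions, which remains an assumption. Prodh's genotype contrasts were fitted with the rest, but their p-values are not read because the choice used them. The 4 members and the gene lists were chosen with earlier results of these data known. From the pathway list, the text names the 3 genes of smallest p in each region where none was called, and always Pycr3, Prodh2, Slc6a7 and Slc25a15; genes named outside this rule were chosen after their values were seen. Likeness names the 3 highest correlations. Alternatives were normalization, an intensity trend, dim rows, single regions, the replicate block and single arrays left out; leaving out the 2 cortex arrays and the cerebellum array with foreign markers was chosen after seeing the data.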

Additional observations from a re-analysis of the deposited data

Results flagged for a closer look

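The Prodh effect in hippocampus stood 0.53 above the effect in cortex on the log2 scale. In the hippocampus all 4 KO arrays lay above all 4 WT arrays and in the cortex all 4 lay below, which drew attention to it, and the difference was not tested because the genotype effects per region entered the choice of Prodh. In KO cerebellum, Oat read 11.81 in animal 2, apart from 11.99 to 12.01 in the other 3 animals. A gap of this size relative to the range is expected by chance in about 1 in 20 groups of 4.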

How the results depend on the processing

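Arrays of 4 animals per group set the limits here, and no signal over background was known. The Prodh differences kept their direction in each region under every alternative run, from -0.22 to -0.15 in cortex, from 0.30 to 0.40 in hippocampus and from -0.23 to -0.13 in cerebellum. In cortex and hippocampus the groups did not overlap, so leaving out arrays could not turn the sign there. KO and WT animals share only a number, and with the replicate block (KO 1 with WT 1 and so on) the cortical Prodh difference was -0.18 (SE 0.11); no member's call changed, while 22 rows were called in cerebellum against 0 without it. A mean over several rows could not be tried, since each member has 1 row. Counts of called rows were 55 and 34 in cortex without KO cortex 2 or 3, against 0, and 1 averaged over regions without animal KO 4 in any 1 region. Without KO cortex 2 or 3, most of the remaining KO cortex arrays were those high in olfactory bulb markers (KO cortex 1 and 4). The part of these markers in the cortical calls was not tested.

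Under quantile normalization, Aldh18a1 hippocampus minus cortex in WT was -0.028, Aldh4a1 cerebellum minus hippocampus in KO 0.0064 and Slc25a15 in hippocampus -0.0034, each with the opposite sign, Aldh18a1 cerebellum minus hippocampus in WT was called at 0.34, and Oat cerebellum minus hippocampus in KO was lost at 0.19. With dim rows left out, fewer rows were tested and Aldh18a1 in WT cerebellum was called against cortex (0.32, adjusted p = 0.0419) and hippocampus (0.32, adjusted p = 0.0468). Without KO cortex 1 and 4, signs turned in cortex for Aldh4a1 (-0.0745), Aldh18a1 (0.009) and Prodh2 (0.059) and for the Prodh effect in cerebellum minus cortex (0.036), and Oat cerebellum minus hippocampus in KO was lost at 0.25. Without KO cerebellum 3 as well, the average over regions was -0.011 for Aldh4a1 and 0.0155 for Aldh18a1, and the Prodh effect in cerebellum minus cortex was 0.053. Apart from the rows tested, the cause was not tested.

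Leaving out 1 array at a time, KO minus WT ranged from -0.026 to 0.19 for Aldh4a1, from -0.095 to 0.046 for Aldh18a1, from -0.0905 to 0.093 for Prodh2, from -0.12 to 0.045 for Slc6a7 and from -0.13 to 0.025 for Slc25a15 in cortex. In hippocampus it ranged from -0.053 to 0.056 for Aldh4a1, from -0.054 to 0.053 for Oat, from -0.095 to 0.0505 for Prodh2, from -0.12 to 0.080 for Slc6a7 and from -0.0325 to 0.0385 for Slc25a15. In cerebellum it ranged from -0.13 to 0.10 for Aldh18a1 and from -0.094 to 0.018 for Oat, the average over regions from -0.067 to 0.012 for Aldh18a1, and the Prodh effect in cerebellum minus cortex from -0.0525 to 0.046. Between regions in KO, Oat ranged from 0.22 to 0.33 for hippocampus minus cortex and from 0.19 to 0.29 for cerebellum minus hippocampus, Aldh18a1 from 0.19 to 0.43 for cerebellum minus cortex and from 0.25 to 0.49 for cerebellum minus hippocampus, and Aldh4a1 from -0.094 to 1e-04 for cerebellum minus hippocampus. In WT, Prodh ranged from -0.24 to -0.14 for cerebellum minus cortex (called at adjusted p = 0.0494 without WT cerebellum 2), Aldh18a1 from -0.088 to 0.064 for hippocampus minus cortex, from 0.23 to 0.37 for cerebellum minus cortex and from 0.26 to 0.37 for cerebellum minus hippocampus, and Oat from 0.22 to 0.33 for cerebellum minus hippocampus.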
